A study of Mus musculus with 20 samples.

Results

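Sorted lymphoid cell types of the mouse were set against the myeloid ones. The lymphoid side was the mean of 6 group means: natural killer cells (labelled NK), naive CD4 T cells (t4n), naive CD8 T cells (t8n, where 1 title reads CD48+ and its source CD8+), activated CD4 T cells (t4a), activated CD8 T cells (t8a) and B cells (B-Cell). The myeloid side was the mean of 2 group means, monocytes (Monocyte) and granulocytes (Granulocytes). Members were chosen by these sample labels alone, with equal weight for each group within a side, and make up 16 of the 20 arrays of the series: 12 lymphoid and 4 myeloid, 2 arrays per group. The other 4 arrays, of long-term stem cells and nucleated erythrocytes, did not enter the difference between the sides; they entered the estimate of the spread, the choice of 1 probe set per gene and the filter on low values. All groups came from wild-type female C57Bl/6 mice carrying CD45.1, aged 12 to 14 weeks, with no treatment named except for t4a and t8a, whose labels give activation with lipopolysaccharide (LPS). Each array held material of 4 pooled samples, and 25000 to 50000 cells were sorted for it by flow cytometry; the surface markers of the gates and the tissue of origin are not stated in those labels. Expression was measured on Affymetrix Mouse430_2 arrays after 2 rounds of RNA amplification, and all levels are log2 GCRMA values, so that a difference of 1 is 2-fold. Fitted differences are given ± their standard error (SE). A p-value measures the spread between 2 pools of a cell type, not between mice.

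Lymphocytes and myeloid cells both descend from blood stem cells and divide the work of immunity. Lymphocytes read antigen through T-cell and B-cell receptors, or missing and altered self through NK receptors, and pass the signal on through Src and Syk family kinases, adaptors, phospholipase C gamma, protein kinase C and Ras. Monocytes and granulocytes recognise microbes with germline-encoded receptors, take them up, and kill them with stored granule proteins and with oxygen radicals made by the phagocyte oxidase. The transcription factors PU.1 (Spi1) and the C/EBP family are known for driving the myeloid programme, and Bcl11b, Tcf7, Foxo1 and the Ikaros family for lymphoid development.

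The sorted groups carried the transcripts of their labels, with exceptions that bear on the results. Cd3g was at 8.49 or above in the 8 T cell arrays and at 4.83 or below elsewhere, Ncr1 was at 10.58 and 9.82 in the NK arrays and at most 2.32 in the others, and Cd79b was at 14.53 and 14.37 in the B-Cell arrays. The Cd4 probe set read 3.68 to 4.35 in the t4n and t4a arrays and 3.41 to 4.03 in the others. It did not set the CD4 T cells apart. Cd14, the monocyte co-receptor for LPS, was at 10.24 and 9.22 in the Monocyte arrays against 2.12 and 1.82 in the Granulocytes arrays. The arrays labelled Monocyte also read high on the 5 granulocyte markers measured, Csf3r, Cxcr2, S100a8, S100a9 and Itgam, the last also a monocyte marker. Those 5 averaged 12.68 and 12.54 in them and 11.92 and 11.87 in the Granulocytes arrays. The 22 granule genes described below averaged 10.14 and 10.59 in the Monocyte arrays and 13.99 and 13.98 in the Granulocytes arrays. The 5 monocyte markers measured averaged 8.79 and 8.58 in the Monocyte arrays and 6.62 and 6.61 in the Granulocytes arrays. Among them Csf1r was at 13.95 and 13.71 against 12.59 and 12.89. Cx3cr1 (5.15 and 5.57 in the Monocyte arrays) was close to its level in the lymphoid arrays. Probe sets for Ccr2, another of the 5, disagreed. The one used read 5.11 and 6.07 in the Monocyte arrays and 5.06 and 5.26 in the Granulocytes arrays. Another read 3.13 and 6.36 in the Monocyte arrays and at least 5.83 in the Granulocytes arrays, with NK highest on both. In the naive CD4 array numbered 2 the same granulocyte markers averaged 6.47, with S100a9 at 10.68, against 3.46 to 4.35 in the other 11 lymphoid arrays. NK array 1 had some macrophage transcripts that NK array 2 had less of (Csf1r 11.42 and 7.30, Slc40a1 10.18 and 5.73, C1qb 10.21 and 7.44). The 14 resident macrophage markers measured averaged 5.38 and 3.83 in these arrays, with C1qa and C1qc at 1.67 in NK array 1. C1qb was also at 9.01 and 9.48 in t4n and 9.57 and 8.49 in B-Cell. Of 12 erythroid markers measured the mean was 8.90 and 6.49 in the Granulocytes arrays and 3.08 to 4.17 in the other 14. The pools are labelled female, yet the Y-linked gene Eif2s3y was at 10.73 or above in the 4 activated T cell arrays and in naive CD4 and CD8 array 1, and at 3.36 or below in the other 10. For Gapdh, the 3 prime control exceeded the 5 prime control by 6.27 to 7.37 in activated T cells and granulocytes and by 8.06 to 10.22 in the other groups. For beta-actin the gap was 4.49 to 5.82 in Granulocytes. It was 6.30 to 6.95 in t8a and 7.69 to 7.80 in t4a, both within the 5.92 to 7.95 of the other groups. The part of these features in the results was not tested beyond the recounts given with them. In sorted pools, fewer cells of a type and less RNA per cell cannot be told apart.

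Lymphoid and myeloid types differed in 5452 of the 9810 genes tested (55.6%). These were called, which asked for an adjusted p under 0.05 and a difference of at least 2-fold. Higher in lymphoid were 3450 (35.2%) and higher in myeloid 2002 (20.4%). In 1969 genes (20.1%) all 12 lymphoid arrays lay above all 4 myeloid arrays, and in 1030 (10.5%) all 4 myeloid arrays lay above all lymphoid ones. A stricter, shared call asked each of the 6 lymphoid groups to differ from each of the 2 myeloid groups, 12 pairs in all. It was met by 977 genes (9.96%) on the lymphoid side and 566 (5.77%) on the myeloid side. The largest lymphoid difference was 8.93 and the largest myeloid one 12.47. The median gene tested lay 0.36 higher in lymphoid. When each array was centred on its median over the genes tested, that median became -0.28 and the share of calls that were lymphoid-high went from 63.3% to 44.1%, so the balance between the sides rests on the scaling. Arrays within the lymphoid side correlated at 0.769 to 0.974 over the genes tested, the Monocyte with the Granulocytes arrays at 0.860 to 0.903, and arrays across the sides at 0.509 to 0.713.

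**Figure D1:**
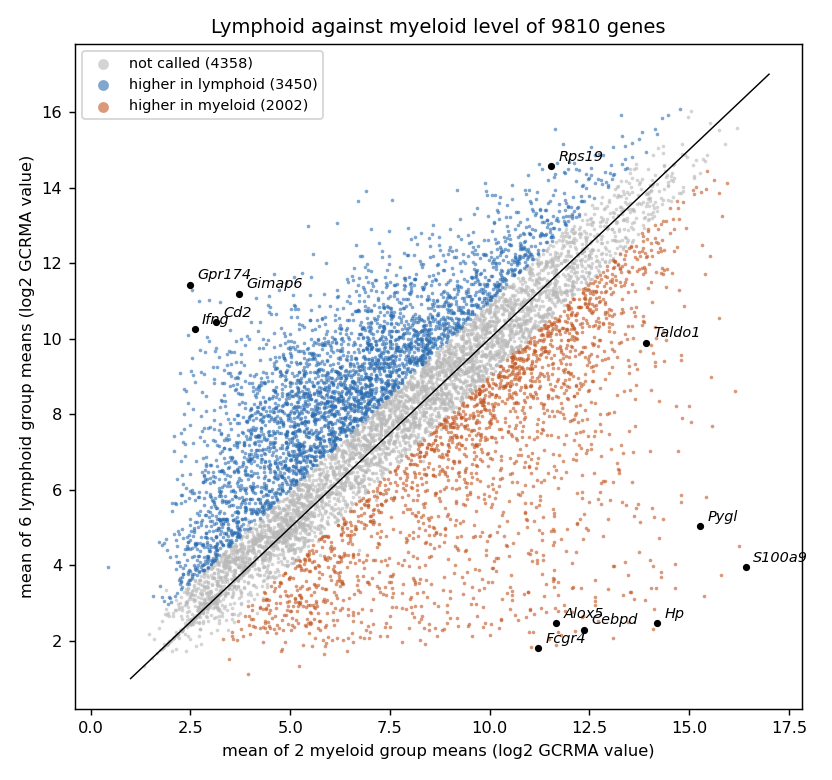
Mean level of each of the 9810 genes on the myeloid side (horizontal axis) and the lymphoid side (vertical axis), in log2 GCRMA values, with the line of equal levels. Blue points are the 3450 genes called higher in lymphoid, orange points the 2002 called higher in myeloid, grey points the genes not called, and black points are genes named in the text. S100a9 has the largest myeloid difference of all genes tested and Gpr174 the largest lymphoid one.

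Monocyte and Granulocytes were also set against lymphoid separately. Of the 3450 lymphoid-high genes, 2666 were also called against Monocyte alone and against Granulocytes alone, 537 against Monocyte only and 224 against Granulocytes only. Of the 2002 myeloid-high genes, 1370 were called against both, 252 against Monocyte only and 376 against Granulocytes only. Another 72 genes were called higher in lymphoid than in Monocyte but lower than in Granulocytes, and 19 the other way round. The 2 comparisons share the lymphoid arrays.

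Promoter sequences were read for the shared sets, because their members move together and factors of both programmes are among the genes described below. RefSeq start sites (GRCm38.p6) were found for 814 of the 977 lymphoid and 462 of the 566 myeloid genes, and the 250 bases before the start were searched on both strands. The PU.1 motif GAGGAAGT was found in 3.9% of the myeloid set, 2.5% of the lymphoid set, 2.7% of the genes tested and 2.4% of all 27025 promoters. The C/EBP motif TTGCNNAA was found in 11.0%, 7.0%, 7.3% and 9.6% of them. The Ets motif CCGGAAGT, which shares its core with that of PU.1, was found in 2.8% of the myeloid and 7.7% of the lymphoid set, beside 6.4% of the genes tested and 2.9% of all promoters. In the same order (myeloid set, lymphoid set, genes tested, all promoters) the Runx motif TGTGGTTN was found in 2.8%, 3.1%, 3.2% and 4.4% and the TCF/LEF motif CTTTGAA in 3.5%, 3.9%, 3.3% and 4.6%. A match is a description of the letters, not a bound site. These 5 promoters belong to shared genes of both sides described below and hold at least 1 match, shown in capitals: the PU.1 motif for Fcgr4 (on the other strand, read ACTTCCTC), the C/EBP motif for S100a9 and, on both strands, for Ngp, the Runx motif for Runx3 and the Ets motif for Rps6.
Fcgr4 (chr1:171018676-171018925, plus strand): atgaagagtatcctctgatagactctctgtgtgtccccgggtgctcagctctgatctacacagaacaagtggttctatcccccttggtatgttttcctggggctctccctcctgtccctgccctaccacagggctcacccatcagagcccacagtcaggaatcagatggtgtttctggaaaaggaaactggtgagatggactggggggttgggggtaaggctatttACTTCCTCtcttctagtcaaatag
S100a9 (chr3:90695722-90695971, minus strand): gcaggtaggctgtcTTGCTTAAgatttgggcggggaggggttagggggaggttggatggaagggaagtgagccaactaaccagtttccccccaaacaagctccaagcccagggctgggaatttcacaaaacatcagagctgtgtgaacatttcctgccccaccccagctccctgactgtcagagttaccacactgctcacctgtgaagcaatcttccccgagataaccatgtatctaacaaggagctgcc
Ngp (chr9:110419558-110419807, plus strand): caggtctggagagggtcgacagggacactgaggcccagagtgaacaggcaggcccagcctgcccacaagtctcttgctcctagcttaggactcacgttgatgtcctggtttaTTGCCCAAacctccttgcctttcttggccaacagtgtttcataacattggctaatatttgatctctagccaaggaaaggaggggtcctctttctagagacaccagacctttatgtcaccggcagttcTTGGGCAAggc
Runx3 (chr4:135120395-135120644, plus strand): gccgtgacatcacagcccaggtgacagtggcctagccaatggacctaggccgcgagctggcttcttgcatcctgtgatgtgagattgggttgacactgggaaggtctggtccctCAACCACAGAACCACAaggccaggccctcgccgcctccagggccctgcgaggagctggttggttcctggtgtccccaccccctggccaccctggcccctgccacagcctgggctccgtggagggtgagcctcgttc
Rps6 (chr4:86857368-86857617, minus strand): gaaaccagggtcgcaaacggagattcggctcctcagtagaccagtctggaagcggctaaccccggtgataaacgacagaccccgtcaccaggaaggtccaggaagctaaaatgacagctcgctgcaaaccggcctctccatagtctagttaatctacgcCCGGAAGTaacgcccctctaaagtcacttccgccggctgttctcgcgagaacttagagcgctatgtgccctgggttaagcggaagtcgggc
Each is written from 250 bases before the start site to the base before it, along the gene's own strand. The Fcgr4 match began 24 bases before the start and the Ngp matches 138 and 11 bases before it. The Rps6 match began 91 bases before the start.

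The genes that marked every lymphoid type were led by a lipid receptor and by small GTPases. Gpr174, a receptor for lysophosphatidylserine, lay at 10.42 to 12.41, with a median of 11.48, in the 12 lymphoid arrays, against 2.53 and 2.55 in the Monocyte arrays and 2.40 and 2.52 in the Granulocytes arrays. No array of either side came near the other, and the difference was 8.93 ± 0.18 (adjusted p = 1.29e-13). Cd2, an adhesion receptor of T and NK cells, lay at 9.38 to 11.43, with a median of 10.46, in the lymphoid arrays and at 3.26 and 3.27 in the Monocyte arrays and 3.20 and 2.80 in the Granulocytes arrays. B cells carried it too, at 10.48 and 9.97, and the difference was 7.30 ± 0.20 (adjusted p = 2.29e-12). Rras2, a Ras-related GTPase, and Ptpn4, a tyrosine phosphatase, were higher in lymphoid by 7.72 ± 0.27 and 7.13 ± 0.27. Gpr171, another G protein-coupled receptor, was higher by 6.97 ± 0.36, and Jakmip1, a microtubule-binding protein, by 8.29 ± 0.40, although activated T cells held less of it (7.63 and 8.38 in t4a, 9.11 and 8.31 in t8a) than naive CD4 cells (12.60 and 12.34). Ablim1, an actin-binding protein, was higher by 7.51 ± 0.35. Several leading genes belong to basic RNA and metabolic machinery: Trmt61a, a tRNA methyltransferase (7.13 ± 0.19), Parn, a poly(A) ribonuclease (6.31 ± 0.48), Polrmt, the mitochondrial RNA polymerase (6.47 ± 0.35), and Aldh18a1, an enzyme of proline synthesis (6.96 ± 0.32). Pvt1, a long noncoding RNA next to Myc, was higher by 6.84 ± 0.20. Other probe sets above background gave smaller differences of the same sign. They were 0.78 and 0.96 for Pvt1, 0.63 to 3.9 for Aldh18a1, 1.85 and 2.2 for Jakmip1 and 1.21 for Gpr174. For Ptpn4 the value was 1.17, for Parn 1.29, for Ablim1 2.56 and for Rras2 4.14. Every gene of this paragraph met the shared call on the probe set used.

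GIMAP proteins are GTPases of immune cells known for lymphocyte survival. All 8 genes tested were called higher in lymphoid, beside 35.2% of all genes tested, with all 12 lymphoid arrays above all 4 myeloid arrays in each, and 7 met the shared call. Their median difference was 6.66, beside 0.36 over all genes tested. Gimap6 lay at 9.72 to 12.58, with a median of 11.51, in lymphoid and at 3.59 and 3.57 in the Monocyte arrays and 4.21 and 3.50 in the Granulocytes arrays, a difference of 7.47 ± 0.16 (adjusted p = 1.54e-13). Gimap7 (8.07 ± 0.27), Gimap1 (6.37 ± 0.29) and Gimap3 (5.89 ± 0.19) likewise had low values in myeloid cells. Gimap4 kept a level there, at 5.52 and 8.92 in the Monocyte arrays and 7.80 and 5.34 in the Granulocytes arrays, under a lymphoid range of 12.14 to 14.88. Within the lymphoid side activated T cells were lowest for Gimap6, at 9.76 and 9.72 in t4a and 10.03 and 9.92 in t8a.

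**Figure D2:**
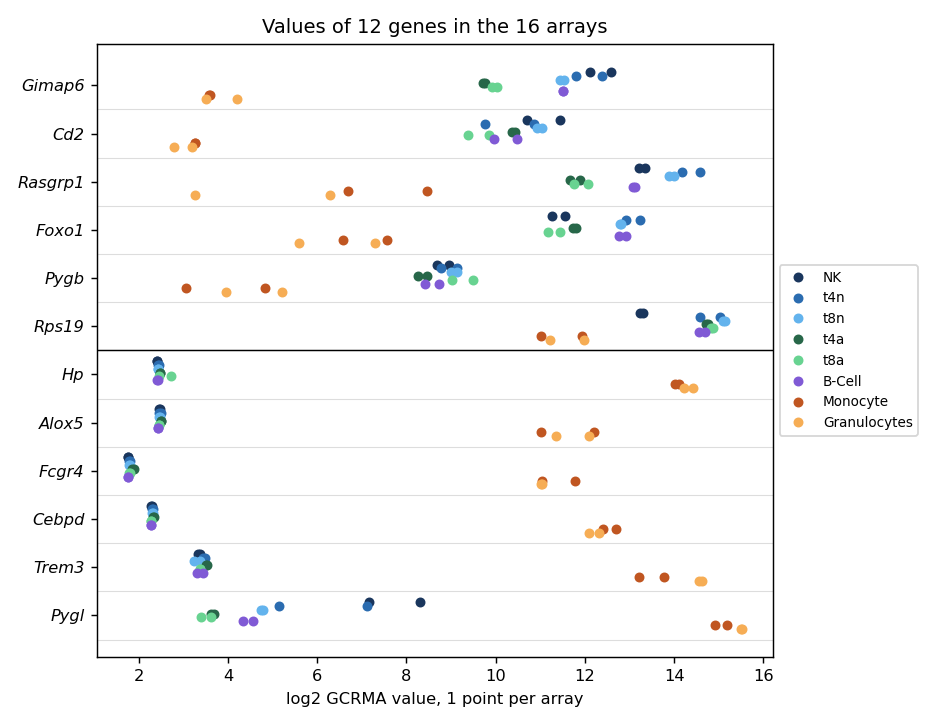
Log2 GCRMA value of 12 genes in each of the 16 arrays, 1 point per array and 1 colour per group; the 6 genes above the line were higher in lymphoid and the 6 below it higher in myeloid. In none of the 12 do the lymphoid and myeloid arrays overlap; Hp, Alox5, Fcgr4 and Cebpd stayed below 3 in all lymphoid arrays.

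T-cell receptor signalling genes were high in T cells and NK cells, while B cells lay near the myeloid level. Their mean over the 22 genes tested was 9.17 to 10.81 in the T cell arrays, 7.87 and 7.85 in NK, 5.18 and 4.70 in B-Cell, and 4.78 to 5.12 in the 4 myeloid arrays. In the comparison of the sides 19 were called higher in lymphoid, beside 35.2% of all genes tested, 2 higher in myeloid and 1 was not called, with a median difference of 3.96. In 6 of the 22 every lymphoid array lay above every myeloid one, and 2 met the shared call. Both counts were near the shares over all genes tested, 20.1% and 9.96%. Lat, the membrane adaptor that gathers the signalling complex, was at 10.92 and 11.77 in t4n, 9.20 and 8.33 in NK and 4.36 and 3.79 in B-Cell, against 2.74 and 2.38 in the Monocyte arrays and 2.34 and 2.67 in the Granulocytes arrays. Its difference was 6.95 ± 0.22 (adjusted p = 8.49e-12), and the B-Cell arrays, though lowest of the lymphoid ones, stayed above the myeloid ones. Rasgrp1, which switches on Ras downstream of antigen receptors, was shared by all lymphoid groups: 11.66 to 14.58, with a median of 13.17, in lymphoid against 6.70 and 8.45 in the Monocyte arrays and 6.29 and 3.26 in the Granulocytes arrays, a difference of 6.89 ± 0.41 (adjusted p = 4.3e-09). Cd247, the zeta chain, differed by 6.42 ± 0.23 and Zap70, the kinase that binds it, by 5.81 ± 0.31; both were high in NK cells (Cd247 11.01 and 10.69, Zap70 9.32 and 8.89) and low in B cells (Cd247 5.28 and 4.64, Zap70 4.33 and 2.37). Cd3g (5.18 ± 0.23) and Cd5 (5.85 ± 0.32), in contrast, were carried by the 4 T cell groups, with Cd5 at 2.47 and 2.55 in NK cells. The exceptions were adaptors. Lcp2 (SLP-76) was higher in myeloid by 2.30 ± 0.16 and Fyb (ADAP) by 2.54 ± 0.18; both were high in T and NK cells as well and lower in B cells (Lcp2 2.64 and 2.25, Fyb 7.46 and 6.58). Ptpn22, a phosphatase that restrains the pathway, differed by 0.58 ± 0.18 and was not called. Lck is not analysed here.

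Within signalling families, different paralogues were high on the 2 sides. Zap70 and Syk form 1 family: Zap70 was higher in lymphoid by 5.81 ± 0.31 and Syk higher in myeloid by 5.04 ± 0.25 (adjusted p = 7.79e-10). The lymphoid side was split for Syk, at 13.10 and 12.54 in B-Cell and 11.80 and 11.25 in NK but 4.14 and 3.20 in t8a, against 12.79 and 13.18 in the Monocyte arrays and 12.32 and 12.79 in the Granulocytes arrays. Among Src kinases, Fyn was higher in lymphoid by 4.08 ± 0.47 and Fgr higher in myeloid by 7.40 ± 0.28, with Blk (1.23 ± 0.24) highest in B cells (14.06 and 13.50). Skap1 was higher in lymphoid by 3.56 ± 0.22 and its relative Skap2 in myeloid by 4.47 ± 0.28. Of the Ras activators, Rasgrp1 and Rasgrp3 (2.55 ± 0.42) were higher in lymphoid and Rasgrp4 (3.90 ± 0.29) and Rasgrp2 (1.17 ± 0.28) in myeloid. Phospholipase C gamma split in the same manner: Plcg1 was higher in lymphoid by 4.98 ± 0.19, and Plcg2, high in B and NK cells too, was higher in myeloid by 3.57 ± 0.19. Prkcq, protein kinase C theta of T cells, was higher in lymphoid by 5.78 ± 0.22, and Prkcd, protein kinase C delta, higher in myeloid by 3.98 ± 0.22. Vav2 was higher in lymphoid by 3.20 ± 0.54 and Vav3 in myeloid by 3.38 ± 0.25, while Vav1, high in both, differed by -0.96 ± 0.24 and was not called.

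**Figure D3:**
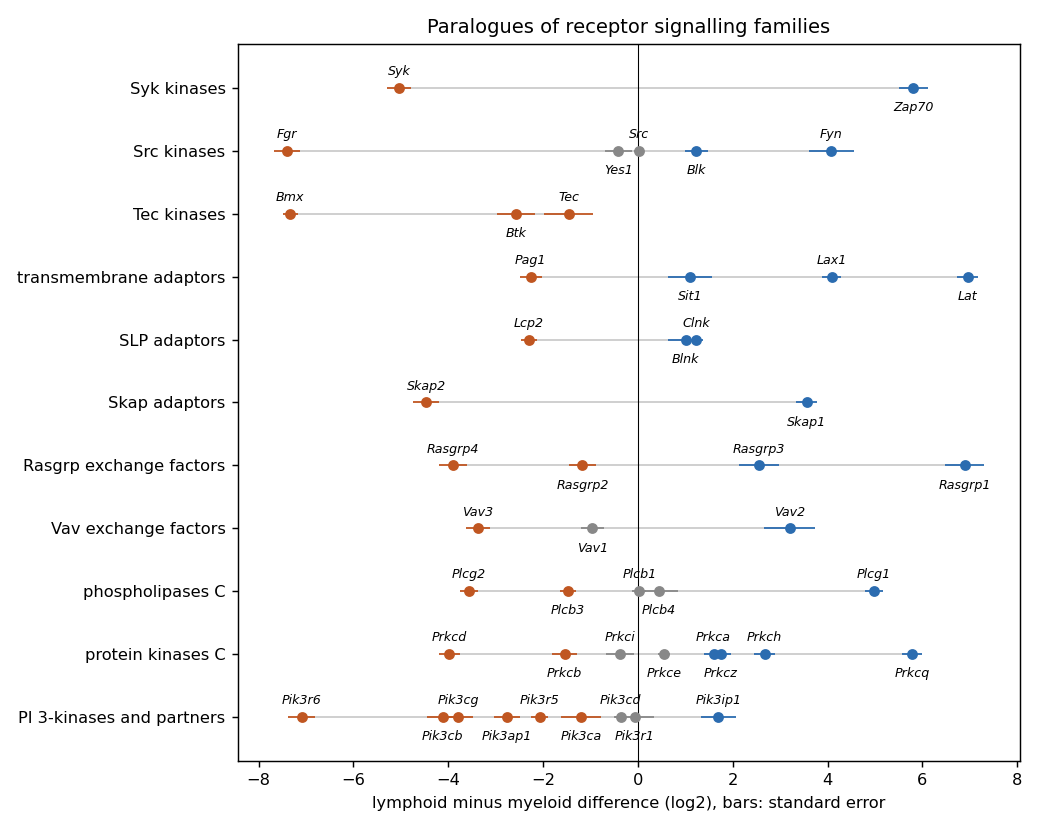
Lymphoid minus myeloid difference (log2) of the tested members of 11 signalling families, 1 point per gene with its standard error. Blue points were called higher in lymphoid, orange points higher in myeloid and grey points were not called; Zap70 and Syk, Fyn and Fgr, Skap1 and Skap2, and Plcg1 and Plcg2 stand on opposite sides of 0.

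The kinases Bmx, Btk and Tec, of the Tec family, were higher in myeloid: Bmx by 7.33 ± 0.16 at the shared level, Btk by 2.58 ± 0.40 and Tec by 1.46 ± 0.52. Against Monocyte alone 1 of the 3 was called. Btk, known from B-cell deficiency, was at 7.24 and 8.70 in B cells, 3.36 and 6.17 in the Monocyte arrays and 8.25 and 7.10 in the Granulocytes arrays, and at most 2.82 in the other 10 lymphoid arrays. The membrane adaptor Lax1 followed Lat (4.08 ± 0.20), and Pag1, which holds Csk at the membrane, was higher in myeloid by 2.26 ± 0.23. Of 9 genes of phosphoinositide 3-kinases and their partners, 6 were called higher in myeloid and 1 in lymphoid. The shares over all genes tested were 20.4% and 35.2%. In 3 of the 9 all myeloid arrays lay above all lymphoid ones, and 1 met the shared call, beside 10.5% and 5.77%. Pik3r6, a regulatory subunit of the gamma enzyme, lay at 3.79 to 6.50, with a median of 4.99, in lymphoid and at 12.59 and 12.33 in the Monocyte arrays and 11.69 and 12.14 in the Granulocytes arrays, a difference of 7.10 ± 0.29. The catalytic subunits Pik3cg (3.80 ± 0.32) and Pik3cb (4.12 ± 0.34) were higher in myeloid too. Pik3cd, the delta subunit, differed by -0.37 ± 0.14 and was not called. Card10, a CARD family scaffold protein, was at 11.76 and 11.06 in the Monocyte arrays and 10.55 and 11.02 in the Granulocytes arrays and at most 5.15 in lymphoid cells (8.85 ± 0.46 higher in myeloid).

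B-cell receptor signalling genes were called in shares near those over all genes. Of 18 tested, 8 were higher in lymphoid, 4 higher in myeloid and 6 were not called, with a median of 0.96, beside 35.2% and 20.4% of all genes tested; after centring on the genes tested the counts were 3 and 4, and without the 6 T cell arrays with Y-linked transcripts they were 13 and 3. B cells are 1 of the 6 lymphoid groups. Cd79b was at 14.53 and 14.37 in B cells, yet the difference of the sides was 0.58 ± 0.51. Cd22 (1.35 ± 0.18), Cr2 (1.52 ± 0.16) and Fcmr (1.43 ± 0.17) were called with B cells as the highest group. Cd72 (3.48 ± 0.46) was high in NK and naive CD8 cells as well (12.34 and 12.31 in NK, 10.87 and 11.11 in t8n). The 4 myeloid-high members were Syk, Plcg2, Btk and Bank1 (2.48 ± 0.56), a B-cell scaffold at 14.76 and 14.60 in B cells and 11.46 and 10.50 in the Monocyte arrays and 10.90 and 10.85 in the Granulocytes arrays.

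Of 29 transcription factors of lymphoid development, 19 were called higher in lymphoid, beside 35.2% of all genes tested, 2 higher in myeloid and 8 were not called, with a median of 1.48. Centred on the genes tested, 14 were higher in lymphoid and 3 in myeloid, with a median of 0.85. Foxo1, which drives Il7r and homing genes in lymphocytes, lay at 11.18 to 13.24, with a median of 12.28, in lymphoid and at 6.58 and 7.56 in the Monocyte arrays and 7.30 and 5.59 in the Granulocytes arrays. All lymphoid groups exceeded both myeloid groups and the difference was 5.44 ± 0.25 (adjusted p = 3.39e-10). The other 5 that met the shared call were Bach2 (4.88 ± 0.55), Ikzf3 or Aiolos (4.73 ± 0.30), Nfatc2 (4.45 ± 0.21), the E protein Tcf12 (4.31 ± 0.35) and Runx3 (3.72 ± 0.25). Bcl11b (5.74 ± 0.53), Tbx21 (6.20 ± 0.22) and Eomes (6.08 ± 0.26) had large differences with low levels in B cells (Bcl11b 6.78 and 5.92, Tbx21 3.93 and 3.94, Eomes 3.36 and 3.81). Ikzf1, the founding Ikaros factor, was high on both sides and differed by 0.44 ± 0.16, which was not called; Runx1 (-0.26 ± 0.26) was not called either. Higher in myeloid were Klf2 (2.09 ± 0.44) and Bcl11a (1.37 ± 0.32). Bcl11a was at 13.48 and 13.40 in B cells, and 2 of its other probe sets above background gave differences of the opposite sign (0.61 and 0.29). Tcf7 is not analysed here.

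Cytokine and homing receptors of lymphocytes varied by lymphoid type. Of 8 common gamma chain receptor genes and their kinases and factors, 5 were higher in lymphoid, beside 35.2% of all genes tested, and 1 in myeloid, with a median of 2.04. Without the 6 T cell arrays with Y-linked transcripts 3 were higher in lymphoid, with a median of 0.55. Il7r lay at 6.44 to 13.85, with a median of 10.52, in lymphoid and at 3.36 and 3.81 in the Monocyte arrays and 8.22 and 5.44 in the Granulocytes arrays, a difference of 5.56 ± 0.38; it was lowest in B cells, at 6.44 and 6.75, overlapping the Granulocytes arrays. Il2ra (3.31 ± 0.14) was carried by the activated T cells (11.70 and 11.90 in t4a) and Il2rb (3.75 ± 0.30) was highest in NK cells (11.00 and 10.59). Stat5a was higher in lymphoid (1.21 ± 0.30) and Stat5b in myeloid (1.47 ± 0.21). Of 14 homing receptors, 6 were higher in lymphoid and 3 in myeloid, near the 35.2% and 20.4% of all genes tested, with a median of 0.77; after centring on the genes tested the counts were 5 and 4. Ccr7, which brings naive cells to lymph nodes, differed by 5.73 ± 0.16 but was at 2.73 and 2.86 in NK cells. Cxcr4, the marrow-retention receptor, was higher in myeloid by 5.03 ± 0.32, at 12.36 and 11.63 in the Monocyte arrays and 11.12 and 10.76 in the Granulocytes arrays against 1.84 to 10.24, with a median of 7.18, in lymphoid arrays, with activated T cells lowest (3.40 and 1.84 in t8a). S1pr5 was high in NK cells (13.92 and 13.30) and in Monocyte arrays (10.22 and 11.93) but not in Granulocytes arrays (3.09 and 3.14).

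Costimulatory and SLAM receptors were called higher in lymphoid in 19 of 21 cases, beside 35.2% of all genes tested. Their median was 3.31, beside 0.36 over all genes tested. In 3 of the 21 every lymphoid array lay above every myeloid one, and 2 met the shared call. Neither count was above the shares over all genes tested, 20.1% and 9.96%. Icos, a costimulatory receptor of activated T cells, differed by 8.75 ± 0.58 (adjusted p = 1.09e-08), at 13.63 and 13.73 in t4a, 10.79 and 11.25 in NK and 2.79 and 5.74 in B-Cell against 1.32 and 4.71 in the Monocyte arrays and 2.07 and 2.09 in the Granulocytes arrays. Slamf6, a self-binding receptor, met the shared call like Cd2 and differed by 5.36 ± 0.49. Cd28 (6.09 ± 0.38), Cd96 (5.47 ± 0.32) and Cd27 (4.76 ± 0.17) were low in B cells (Cd28 2.85 and 2.92, Cd96 4.18 and 3.72, Cd27 3.36 and 3.01). Cd244a, a SLAM receptor of NK cells, was higher in myeloid by 3.92 ± 0.20, at 13.45 and 13.73 in the Monocyte arrays and 7.94 and 7.53 in the Granulocytes arrays and 13.91 and 13.66 in NK. Ltb, lymphotoxin beta, differed by 0.30 ± 0.28 and was not called. Of 11 cytotoxic effector genes, 9 were higher in lymphoid, beside 35.2% of all genes tested, with a median of 3.34. None of the 11 met the shared call. Their mean was 13.14 and 12.81 in NK but 4.66 and 4.53 in B-Cell. In the Monocyte arrays it was 5.41 and 5.07, and in the Granulocytes arrays 4.74 and 4.34. The granule proteoglycan Srgn was the 1 higher in myeloid (1.67 ± 0.16). Ifng, interferon gamma, differed by 7.64 ± 0.54 (adjusted p = 2.07e-08), at 13.86 and 13.14 in NK and 12.40 and 14.48 in t8a, down to 5.13 and 3.82 in B-Cell, above 3.08 and 2.84 in the Monocyte arrays and 2.26 and 2.24 in the Granulocytes arrays. Gzma, granzyme A, was not called (0.19 ± 0.65): it was at 15.72 and 15.50 in NK but also at 9.23 and 8.89 in the Monocyte arrays.

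Ribosomal protein and elongation factor genes were higher in lymphoid. Of 25 tested, 24 were called higher in lymphoid and none higher in myeloid, with a median of 2.15. In 24 all lymphoid arrays lay above all myeloid ones, and 17 met the shared call. The shares over all genes tested were 35.2% called higher in lymphoid, 20.1% non-overlapping and 9.96% shared. Rps19 lay at 13.23 to 15.14, with a median of 14.73, in lymphoid and at 11.01 and 11.94 in the Monocyte arrays and 11.98 and 11.22 in the Granulocytes arrays, a difference of 3.03 ± 0.19 (adjusted p = 6.27e-09). Rpl12 (5.45 ± 0.41), Rpl14 (4.63 ± 0.30), Rps15 (3.15 ± 0.21) and Eef1d (3.37 ± 0.13), which loads the elongation factor with GTP, differed at least as much. Rps9 was not called (0.19 ± 0.15). The mean over the 25 genes was 13.26 to 14.28 in the lymphoid arrays and 11.35 to 11.90 in the myeloid arrays, lowest of the lymphoid types in NK. After centring on the genes tested 19 of the 25 were still called, all higher in lymphoid, with a median of 1.52. Other ribosomal genes, 15 of the 41 listed, are not analysed here.

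DNA replication and mitosis genes separated the 2 myeloid groups from each other. Over the 29 genes the mean level was 4.61 and 4.74 in the Monocyte arrays, 8.61 and 7.64 in the Granulocytes arrays and 6.88 to 9.58 in the lymphoid arrays. Against the mean of both myeloid groups, 14 were called higher in lymphoid and 1, Ube2c, higher in myeloid, with a median of 0.96, beside 35.2% and 20.4% of all genes tested. The counts were 12 and 5 when arrays were centred on the genes tested (median 0.33), and 12 and 4 without the 6 T cell arrays with Y-linked transcripts (median 0.41). Against Monocyte alone 20 were higher in lymphoid and none lower; against Granulocytes alone 8 were higher in lymphoid and 11 higher in Granulocytes. Mcm2, a subunit of the replicative helicase, was the only member to meet the shared call: it lay at 7.66 to 11.14, with a median of 8.38, in lymphoid and at 3.93 and 4.08 in the Monocyte arrays and 7.32 and 5.53 in the Granulocytes arrays (3.89 ± 0.26, adjusted p = 1.25e-08). Mcm5 (3.22 ± 0.20), Mcm6 (3.35 ± 0.17) and Mcm3 (3.79 ± 0.24) were likewise lowest in the Monocyte arrays and highest in activated T cells. Rrm2, which makes deoxynucleotides, was at 2.54 and 3.62 in the Monocyte arrays and 12.54 and 11.45 in the Granulocytes arrays; its difference was 3.20 ± 0.55, with the Monocyte arrays low, and its other probe sets gave -0.38 and -0.35. Ube2c, a ubiquitin-conjugating enzyme of mitosis, was at 8.54 and 7.48 in the Granulocytes arrays and 4.24 and 3.98 in the Monocyte arrays. Aurkb (-0.21 ± 0.39) and Birc5 (-0.20 ± 0.48) were not called.

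**Figure D4:**
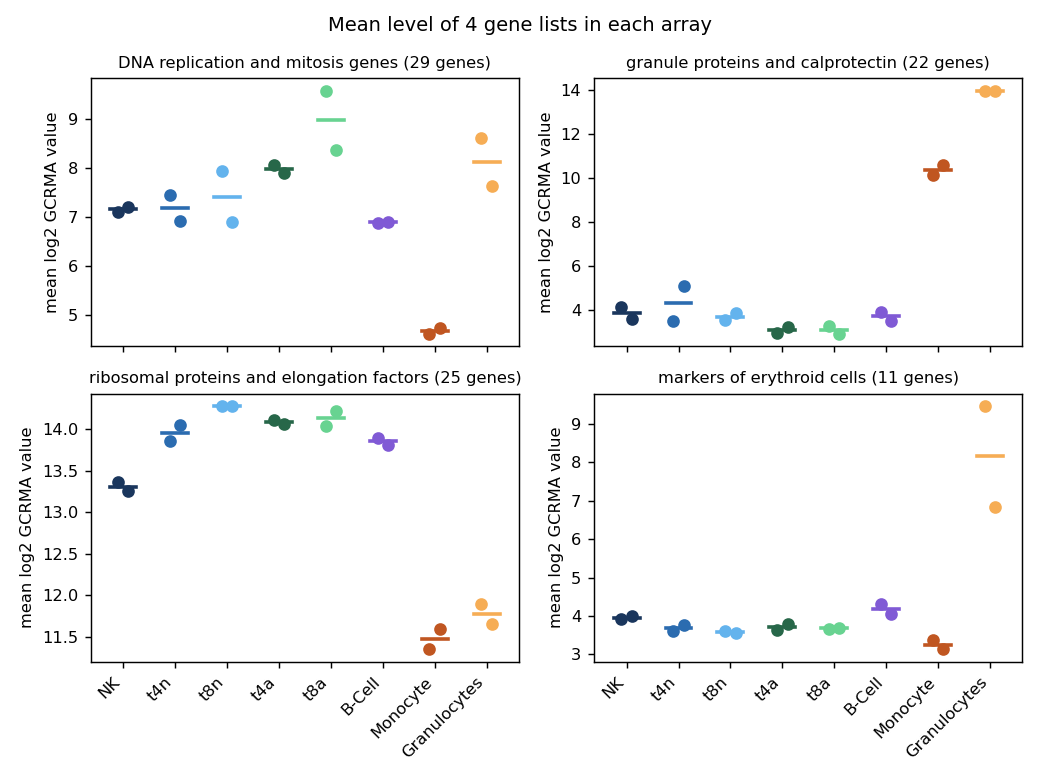
Mean log2 GCRMA value of the tested members of 4 gene lists in each array, with 2 points per group and a bar at their mean; each panel has its own vertical scale, which does not start at 0. Replication genes were lowest in the Monocyte arrays, granule genes highest in the Granulocytes arrays, ribosomal genes lower in all 4 myeloid arrays, and erythroid markers raised in the Granulocytes arrays.

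On the myeloid side, granule proteins had the largest differences. All 22 genes tested were called higher in myeloid, beside 20.4% of all genes tested, with a median of -9.31 for lymphoid minus myeloid; in 18 all myeloid arrays lay above all lymphoid ones, and 17 met the shared call. S100a9, a subunit of the calcium-binding protein calprotectin, lay at 2.86 to 10.68, with a median of 3.12, in lymphoid and at 16.56 and 16.37 in the Monocyte arrays and 16.26 and 16.50 in the Granulocytes arrays. The highest lymphoid array was naive CD4 array 2, at 10.68; the next was at 5.06. The difference was 12.47 ± 0.92 (adjusted p = 3.28e-08). Its partner S100a8 (11.73 ± 0.96), Lcn2, which binds bacterial siderophores (12.18 ± 0.73), and Mmp9, a matrix protease of tertiary granules (12.06 ± 0.37), followed. Hp, haptoglobin, was free of that array's rise: it lay at 2.40 to 2.73, with a median of 2.44, in lymphoid and at 14.10 and 14.02 in the Monocyte arrays and 14.41 and 14.23 in the Granulocytes arrays (11.73 ± 0.31, adjusted p = 1.75e-12). Ngp, neutrophilic granule protein, differed by 10.96 ± 0.31 and was higher in the Granulocytes arrays (15.25 and 15.56) than in the Monocyte arrays (11.77 and 11.30). Over the 22 genes the mean was 13.99 and 13.98 in the Granulocytes arrays, 10.14 and 10.59 in the Monocyte arrays, 5.07 in naive CD4 array 2 and 2.90 to 4.14 in the other lymphoid arrays. Without naive CD4 array 2 all 22 were still called.

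Genes outside the granule list led the myeloid side as well. Slfn4, a Schlafen family gene, was at 14.26 and 14.33 in the Monocyte arrays and 13.84 and 13.99 in the Granulocytes arrays and at 1.82 and 7.40 in the naive CD4 arrays (11.78 ± 0.70). Gda, guanine deaminase, lay at 2.67 to 3.83, with a median of 2.71, in lymphoid and at 14.12 and 14.11 in the Monocyte arrays and 14.09 and 14.11 in the Granulocytes arrays (11.26 ± 0.18, adjusted p = 8.36e-15). Ceacam10 (11.01 ± 0.14), the cystatin-related Stfa2l1 (10.61 ± 0.11), the chitinase-like Chil1 (10.51 ± 0.25), the secreted glycoprotein Lrg1 (9.88 ± 0.31) and Hacd4, an enzyme of fatty acid elongation (9.76 ± 0.27), met the shared call and differed by at least 9.36 in each of the 12 pairs. Hdc, which makes histamine and is known from mast cells and basophils, was at 14.66 and 13.90 in the Monocyte arrays and 13.28 and 13.75 in the Granulocytes arrays and differed by 10.83 ± 0.64.

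Pattern recognition receptors and their adaptors were called higher in myeloid in 18 of 21 cases, with a median of -5.26. In 15 the arrays of the sides did not overlap, and 12 met the shared call. The shares over all genes tested were 20.4% called higher in myeloid, 10.5% non-overlapping and 5.77% shared. Clec4d, a C-type lectin for mycobacterial lipids, lay at 2.60 to 9.25, with a median of 2.83, in lymphoid, with naive CD4 array 2 the highest, and at 15.06 and 15.11 in the Monocyte arrays and 14.39 and 13.99 in the Granulocytes arrays (11.25 ± 0.80, adjusted p = 2.34e-08). Its relative Clec4e (9.59 ± 0.51), the formyl peptide receptor Fpr2 (10.77 ± 0.58), Tlr13, a sensor of bacterial ribosomal RNA (8.66 ± 0.15), the beta-glucan receptor Clec7a (7.24 ± 0.46) and Tlr2 (6.96 ± 0.28) followed. Clec7a was not silent in lymphoid arrays, at 5.53 to 10.07, with a median of 7.91, but below 15.82 and 15.76 in the Monocyte arrays and 14.25 and 14.34 in the Granulocytes arrays. Cd14 (4.20 ± 0.58) was high in the Monocyte arrays only. Higher in lymphoid were Tlr3 (1.90 ± 0.15), at 8.70 and 8.54 in t8n and 7.68 and 7.89 in B-Cell, and Tlr1 (1.55 ± 0.54), at 13.81 and 13.69 in B-Cell and 12.17 and 12.71 in t8n against 9.33 and 10.88 in the Monocyte arrays and 6.08 and 6.56 in the Granulocytes arrays. Irak1, a shared kinase of these receptors, was not called (0.45 ± 0.15).

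Fc and complement receptors were higher in myeloid in 9 of 12 cases, beside 20.4% of all genes tested, with a median of -2.89. The shared call was met by 4, beside 5.77% of all genes tested. Fcgr4, an activating receptor for IgG, lay at 1.76 to 1.89, with a median of 1.79, in lymphoid and at 11.04 and 11.77 in the Monocyte arrays and 11.01 and 11.03 in the Granulocytes arrays (9.41 ± 0.13, adjusted p = 2.39e-15). Fcgr3 differed by 8.85 ± 0.28; NK cells, which use it for antibody-dependent killing, were at 11.65 and 11.28 and the B-Cell arrays at 3.24 and 3.05. Fcer1g, the signalling chain of these receptors, was high in NK too (12.26 and 11.71) and differed by 6.62 ± 0.40. C5ar1, the receptor for complement C5a, differed by 4.34 ± 0.27. All 4 beta 2 integrin genes tested were higher in myeloid, beside 20.4% of all genes tested. They were Itgam (5.61 ± 0.17, shared), Itgb2 (2.60 ± 0.30), Itgax (1.89 ± 0.24) and Itgal (1.46 ± 0.20). NK cells were above the Monocyte arrays for Itgax, at 11.40 and 11.23 against 9.41 and 8.85, and Granulocytes were at 4.72 and 5.37.

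Paired and inhibitory receptors are membrane proteins with activating and inhibiting members. They were higher in myeloid in 19 of 20 cases, beside 20.4% of all genes tested. Their median was -6.73, and 14 met the shared call, beside 5.77% of all genes tested. Trem3 lay at 3.23 to 3.52, with a median of 3.38, in lymphoid and at 13.78 and 13.21 in the Monocyte arrays and 14.63 and 14.56 in the Granulocytes arrays (10.65 ± 0.25, adjusted p = 5.38e-13). Cd300lb (9.70 ± 0.50), Clec4a2 (8.92 ± 0.40), Cd300ld (8.66 ± 0.13), and the pair Pilra (8.04 ± 0.27) and Pilrb1 (7.94 ± 0.15), an inhibiting and an activating receptor, followed. Mrc1, the mannose receptor of macrophages, was not called (-0.03 ± 0.50) and was at 3.84 and 3.77 in the Monocyte arrays and 4.66 and 4.78 in the Granulocytes arrays.

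The phagocyte oxidase was called higher in myeloid in 6 of 7 genes, and higher in lymphoid in 1, with a median of -2.27. The shares over all genes tested were 20.4% and 35.2%. For Cybb, Ncf1 and Ncf4 B cells were the highest lymphoid type. Cybb, its catalytic subunit, differed by 6.24 ± 0.76 but the 2 Monocyte arrays disagreed, at 5.59 and 11.03, against 12.74 and 12.54 in Granulocytes and 8.81 and 9.33 in B-Cell. Ncf1, a cytosolic subunit, was at 12.16 and 12.06 in the Monocyte arrays and 13.85 and 14.06 in the Granulocytes arrays (5.96 ± 0.32, adjusted p = 1.3e-09), and Ncf4, another, differed by 3.35 ± 0.18. Hvcn1, the proton channel that balances the charge of the oxidase, was higher in lymphoid (1.56 ± 0.27): B cells were at 14.22 and 13.87, Granulocytes at 10.44 and 11.33 and Monocyte at 6.85 and 6.23.

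Receptors for growth factors and chemokines were higher in myeloid in 18 of 22 cases, beside 20.4% of all genes tested. Their median was -4.28, and 10 met the shared call, beside 5.77% of all genes tested. Csf3r, the receptor for granulocyte colony-stimulating factor, lay at 5.62 to 5.78, with a median of 5.68, in lymphoid and at 13.71 and 13.50 in the Monocyte arrays and 11.44 and 11.30 in the Granulocytes arrays (6.80 ± 0.22, adjusted p = 1.21e-11). It was higher in the arrays labelled Monocyte than in those labelled Granulocytes. Ccr1, a receptor for inflammatory chemokines (9.54 ± 0.23), Il1r2, the decoy receptor for interleukin 1 (8.88 ± 0.45), Il13ra1 (7.91 ± 0.11) and Csf2ra (6.62 ± 0.22) met the shared call. Csf1r (6.10 ± 0.59) did not: NK array 1 was at 11.42 and naive T and B cells at 7.91 to 10.21. Il6st, the signalling chain for interleukin 6, was higher in lymphoid (3.91 ± 0.40), through the T cell groups (10.62 and 11.17 in t8n). Cx3cr1 (-0.20 ± 0.12) was not called. Ccr2 was not called on the probe set used (0.47 ± 0.17), and its 2 other probe sets above background gave differences of -0.92 and -0.04, of opposite sign.

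Myeloid transcription factors were higher in myeloid in 16 of 25 cases and higher in lymphoid in 4, with a median of -3.18. The shares over all genes tested were 20.4% and 35.2%. The shared call was met by 8, beside 5.77% of all genes tested. Cebpd, a C/EBP factor, was at 2.27 to 2.34, with a median of 2.29, in lymphoid and at 12.40 and 12.69 in the Monocyte arrays and 12.08 and 12.32 in the Granulocytes arrays (10.08 ± 0.28, adjusted p = 2.65e-12). Nfe2, better known from megakaryocytes and red cells, was at 12.20 and 11.98 in the Monocyte arrays and 12.49 and 12.71 in the Granulocytes arrays and at most 3.78 in lymphoid (10.10 ± 0.19). Spi1, which encodes PU.1, lay at 4.07 to 6.62, with a median of 4.62, in lymphoid, highest in B cells, and at 10.21 and 10.03 in the Monocyte arrays and 9.15 and 9.82 in the Granulocytes arrays (4.91 ± 0.26, adjusted p = 1.09e-09). Cebpb (5.75 ± 0.32) and Klf4 (5.48 ± 0.38) were higher in Monocyte (Cebpb 12.56 and 12.06, Klf4 10.98 and 12.44) than in Granulocytes (Cebpb 10.41 and 8.71, Klf4 8.54 and 7.64). Mxd1, an antagonist of Myc, differed by 6.99 ± 0.20. The exceptions were Irf8 (3.01 ± 0.38), a factor that myeloid precursors use to become monocytes, at 7.54 and 9.02 in the Monocyte arrays and 9.50 and 9.22 in the Granulocytes arrays and at 12.84 and 12.58 in B cells; Gfi1 (2.30 ± 0.30), Maf (2.98 ± 0.51) and Egr1 (1.80 ± 0.76). The Egr1 call (adjusted p = 0.0471) was kept in 12 of 40 alternatives, lost in 27 and of opposite sign in 1. Its difference was 0.63 without Monocyte array 2, 0.86 without Granulocytes array 2 and -1.32 against Monocyte alone. Egr1 was at 14.42 and 9.74 in the Monocyte arrays and 7.72 and 3.99 in the Granulocytes arrays, and Nr4a1, another immediate early gene, at 13.22 and 12.01 in the Monocyte arrays and 5.04 and 5.19 in the Granulocytes arrays with the lymphoid arrays between; Nr4a1 was not called (-0.48 ± 0.19). All 7 Krueppel-like factors tested were called higher in myeloid, beside 20.4% of all genes tested. They ranged from Klf4 and Klf6 (3.57 ± 0.38) to Klf13 (1.13 ± 0.17). Without the 6 T cell arrays with Y-linked transcripts 4 of them were called higher in myeloid.

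Inflammatory mediators were higher in myeloid in 15 of 23 cases, beside 20.4% of all genes tested. Their median was -2.48, and 6 met the shared call, beside 5.77% of all genes tested. Il1b, interleukin 1 beta, lay at 3.31 to 7.14, with a median of 3.37, in lymphoid, with naive CD4 array 2 highest, and at 15.80 and 15.49 in the Monocyte arrays and 11.28 and 11.34 in the Granulocytes arrays (9.74 ± 0.37, adjusted p = 4.38e-11). Ccl6 (9.88 ± 0.54) and Ccl9 (5.20 ± 0.45), chemokines, and Tnfaip2 (8.93 ± 0.87) were shared by both myeloid groups. Cxcl2, a neutrophil attractant, was at 14.77 and 12.67 in the Monocyte arrays and 11.51 and 7.91 in the Granulocytes arrays and differed by 8.15 ± 1.07, while Cxcl3 was at 13.23 and 5.66 in the Monocyte arrays and was not called (-2.33 ± 1.03). Pycard, the inflammasome adaptor, was higher in lymphoid (1.77 ± 0.18), at 7.06 and 6.62 in the Monocyte arrays and 9.61 and 9.57 in the Granulocytes arrays and 8.69 to 11.14, with a median of 10.31, in lymphoid. Ccl3 was not called (-0.66 ± 0.68), being at 11.61 and 10.11 in NK.

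Alox5, the key enzyme of leukotriene synthesis, stayed low in every lymphoid array. Of 13 genes of the leukotriene and prostanoid pathway, 11 were higher in myeloid and 1 in lymphoid, with a median of -4.11. The shares over all genes tested were 20.4% and 35.2%. The shared call was met by 7, beside 5.77% of all genes tested. Alox5, which makes the leukotriene precursor, was at 2.44 to 2.51, with a median of 2.46, in lymphoid and at 12.21 and 11.01 in the Monocyte arrays and 11.35 and 12.10 in the Granulocytes arrays (9.20 ± 0.21, adjusted p = 2.81e-13). Alox5ap, its membrane partner, was present in naive T cells (8.65 and 9.79 in t4n) and differed by 9.13 ± 0.48. Ltb4r1, the receptor for the product leukotriene B4, differed by 6.46 ± 0.10, and Pla2g4a, which releases arachidonic acid, by 5.15 ± 0.27. Lta4h, the hydrolase that completes leukotriene B4, was at 8.20 and 8.89 in the Monocyte arrays and 12.75 and 12.77 in the Granulocytes arrays and was not called (-0.87 ± 0.18). Ptger4, a prostaglandin receptor, was higher in lymphoid (1.05 ± 0.17).

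Isoforms of carbohydrate enzymes differed between the sides. Of 30 genes of glucose, glycogen and pentose phosphate metabolism, 15 were higher in myeloid and 4 in lymphoid, with a median of -1.08. The shares over all genes tested were 20.4% and 35.2%. The shared call on the myeloid side was met by 9, beside 5.77% of all genes tested. Centred on the genes tested, the counts were 18 and 2, with a median of -1.71. Pygl, the liver-type glycogen phosphorylase, lay at 3.39 to 8.31, with a median of 4.64, in lymphoid and at 14.91 and 15.19 in the Monocyte arrays and 15.49 and 15.52 in the Granulocytes arrays (10.24 ± 0.33, adjusted p = 8.85e-12). Pygb, the brain-type isoform, did the reverse, at 8.25 to 9.49, with a median of 8.87, in lymphoid and 3.06 and 4.83 in the Monocyte arrays and 5.20 and 3.95 in the Granulocytes arrays (4.58 ± 0.28, adjusted p = 5.69e-09), and both met the shared call. Of the hexokinases, Hk3 was higher in myeloid by 8.54 ± 0.31 and Hk2 by 3.09 ± 0.29, with Hk2 at 8.80 and 9.66 in t4a, and Hk1 was not called (-0.52 ± 0.19). Taldo1, transaldolase of the pentose phosphate pathway, lay at 9.19 to 10.49, with a median of 9.96, in lymphoid and at 13.83 and 14.15 in the Monocyte arrays and 13.76 and 13.91 in the Granulocytes arrays (4.02 ± 0.16). Mgam, a maltase (9.31 ± 0.26), Pfkfb4, which sets the level of a glycolytic activator (6.97 ± 0.27), and the transporter Slc2a6 (5.64 ± 0.22) were shared by both myeloid groups. The core enzymes Pgk1 (-0.30 ± 0.14), Ldha (-0.25 ± 0.23) and Aldoa (-0.93 ± 0.23) were not called, and Ldhb was higher in lymphoid (1.51 ± 0.21) through the T cell groups.

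Lysosome genes were higher in myeloid in 19 of 32 cases, beside 20.4% of all genes tested. Their median was -1.91, and 5 met the shared call, beside 5.77% of all genes tested. Cd68 (6.17 ± 0.62) was at 10.78 and 11.41 in the Monocyte arrays and 9.16 and 9.03 in the Granulocytes arrays, and Asah1, acid ceramidase, lay at 8.12 to 9.22, with a median of 8.72, in lymphoid and 10.87 and 12.23 in the Monocyte arrays and 12.35 and 11.72 in the Granulocytes arrays (3.07 ± 0.26, adjusted p = 1.41e-07). Man2b1, an acid mannosidase (2.95 ± 0.17), and Atp6v1b2, a proton pump subunit (2.85 ± 0.27), met the shared call with Asah1; Cd68 did not. Ctsh, cathepsin H, differed by 4.94 ± 0.71 although B cells were at 14.38 and 13.42. Ctsc, which activates granule proteases, was higher in lymphoid (1.36 ± 0.41), and Lamp1 (-0.88 ± 0.20), Laptm5 (-0.62 ± 0.13) and Ctss (-0.46 ± 0.22) were not called. After centring on the genes tested 25 were higher in myeloid and none in lymphoid.

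Interferon response genes were higher in myeloid in 15 of 21 cases, beside 20.4% of all genes tested. Their median was -2.06, and 5 met the shared call, beside 5.77% of all genes tested. Oasl2 lay at 3.41 to 8.59, with a median of 5.88, in lymphoid and at 13.33 and 13.99 in the Monocyte arrays and 11.78 and 11.96 in the Granulocytes arrays (6.83 ± 0.29, adjusted p = 1.45e-10). Rsad2, an antiviral enzyme (5.93 ± 0.28), and the RNA sensors Oas2 (5.06 ± 0.22), Oas3 (3.73 ± 0.16) and Oas1a (3.87 ± 0.33) met the shared call; Rsad2 was lowest in t4a, at 4.33 and 3.91. Bst2, tetherin, ran the other way (2.91 ± 0.60), as did Mx1 (1.22 ± 0.40). For Bst2 the difference came from T cells: naive CD4 array 1 was at 1.80 and the other 7 T cell arrays at 4.69 to 8.23, while NK (1.68 and 1.78) and B-Cell (1.74 and 1.77) were level with 1.75 and 1.68 in the Monocyte arrays and 1.65 and 1.74 in the Granulocytes arrays. Ifit2 (0.88 ± 0.45) and Stat2 (-0.10 ± 0.21) were not called.

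Regulators of survival and division were called in part. Of 9 Bcl2 family genes, 1 was called higher in lymphoid, 4 higher in myeloid and 4 were not called, with a median of 0.0. The shares over all genes tested were 35.2% and 20.4%, and no member met the shared call. Bcl2, the one higher in lymphoid, was at 7.87 to 13.32, with a median of 10.48, in the lymphoid arrays. It was at 3.27 and 10.64 in the Monocyte arrays and 6.47 and 4.28 in the Granulocytes arrays (4.62 ± 0.97, adjusted p = 0.000699). The 2 Monocyte arrays lay far apart and 1 of them fell within the lymphoid range. Mcl1 (1.01 ± 0.12) and the death promoters Bmf (2.98 ± 0.21), Bid (2.21 ± 0.18) and Bad (1.30 ± 0.21) were higher in myeloid. Bcl2l1 was not called (0.01 ± 0.15). Of 4 CDK inhibitors tested, 2 were called higher in myeloid, beside 20.4% of all genes tested, and 2 were not called. Cdkn2d lay at 3.56 to 6.36, with a median of 4.51, in the lymphoid arrays. It was at 7.16 and 9.18 in the Monocyte arrays and 8.86 and 8.86 in the Granulocytes arrays (3.95 ± 0.34). Cdkn1b was higher in myeloid by 1.12 ± 0.16.

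**Figure D5:**
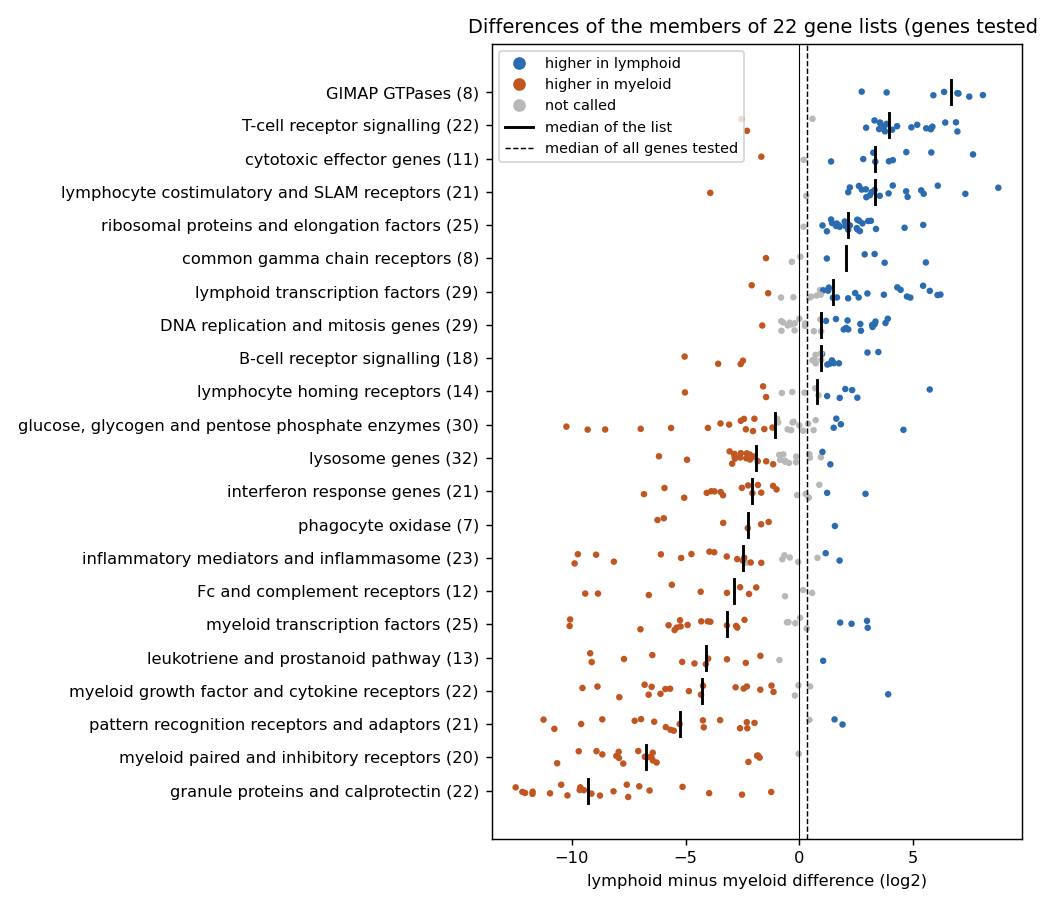
Lymphoid minus myeloid difference (log2) of each tested member of 22 gene lists, 1 point per gene; black bars are list medians and the dashed line is the median of all genes tested, 0.36. The granule list has its median at -9.31 and the GIMAP list at 6.66, while the B-cell receptor and homing lists straddle 0.

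Markers of some other cell types moved with the sides too. Over all genes tested 20.4% were called higher in myeloid and 35.2% higher in lymphoid. Of 11 erythroid markers tested, 8 were called higher in myeloid and 1, Tfrc, higher in lymphoid. They were carried by the Granulocytes arrays: Alas2, of heme synthesis, was at 11.49 and 10.02 there and 1.58 and 1.56 in the Monocyte arrays, and Slc4a1, the red cell anion exchanger, at 13.29 and 11.89 against 4.61 and 4.10. Against Monocyte alone none of the 11 was higher in myeloid, and without Granulocytes array 1 the count was 5. Hba-a1 was not tested and read at most 2.72 in all 16 arrays. Of 6 mast cell, basophil and eosinophil markers tested, 5 were higher in myeloid, and 2 were called against Monocyte alone. The eosinophil genes Epx (10.18 and 9.49) and Prg2 (9.16 and 7.71) and the basophil gene Mcpt8 (7.33 and 6.98) were above 5 in the Granulocytes arrays only. Siglecf was at 11.24 and 10.68 in the Monocyte arrays and 8.93 and 8.41 in the Granulocytes arrays. Other members of the list read lower in the Granulocytes arrays. The eosinophil receptors Ccr3 (2.17 and 2.20) and Il5ra (3.67 and 3.60) were near their level in the Monocyte arrays. Cpa3 was at 4.23 and 3.88, Fcer1a at 4.37 and 3.93 and Ms4a2 at 5.34 and 4.89. Of 8 resident macrophage markers tested 3 were higher in myeloid and none in lymphoid, with a median of 0.21 for lymphoid minus myeloid. Among the 3 was the iron exporter Slc40a1, at 13.99 and 13.89 in the Monocyte arrays and 13.37 and 13.61 in the Granulocytes arrays. Another was Adgre1, at 12.04 and 12.28 in the Monocyte arrays and 9.10 and 9.35 in the Granulocytes arrays. C1qa, C1qc, Timd4 and Marco read at most 2.71 in the 16 arrays. Of 9 dendritic cell markers 7 were higher in lymphoid, the class II genes H2-Aa (1.50 ± 0.37) and H2-Ab1 (3.01 ± 0.55) among them; against Monocyte alone 4 were. H2-Ab1 was at 14.17 and 13.81 in B-Cell and at 9.50 and 11.22 in t4n and 10.53 and 11.69 in t8n. Stem cell markers (3 of 9) and platelet markers (3 of 6) were called higher in myeloid, beside 20.4% of all genes tested, and 1 of the 9 stem cell markers was against Monocyte alone or without the 6 T cell arrays with Y-linked transcripts. Against Monocyte alone 2 of the 6 platelet markers were called. Of 6 plasma cell markers 3 were higher in lymphoid and 1 in myeloid, with a median of 1.01; centred on the genes tested, 1 was higher on each side, with a median of 0.38. Among the stem cell markers, Kit was at 7.42 and 7.02 in Granulocytes and 7.71 and 7.59 in NK, and Cd34 at most 2.92.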

How the data were processed

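Whole-transcriptome levels of sorted mouse cells were measured on 20 Affymetrix Mouse430_2 arrays, 2 for each of 10 cell types, and 16 arrays of 8 types entered the comparison. The deposited values are log2 GCRMA values computed by the authors, per the submitters' processing notes; the GCRMA version and settings are not given in the sources used. GCRMA models background from probe sequence, and any scaling between arrays removes a general rise or fall of RNA per cell. Precision is limited by the 2 arrays per group, each a pool, so p-values cover the spread between pools only.

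Of the probe sets naming 1 gene, that with the highest mean over the 20 arrays stood for each of 18193 genes. The 9810 genes above a log2 value of 5 in at least 2 arrays were tested, and 8383 were not. limma 3.58.1 (R 4.3.3; lmFit and eBayes) was fitted with 1 mean per cell type over all 20 arrays, and p-values were adjusted by the Benjamini-Hochberg method over the genes tested. Genes were called at an adjusted p below 0.05 with a change of 2-fold or more. The shared call took the largest one-sided p of the 12 pairs of a lymphoid and a myeloid group, adjusted likewise, with the smallest pair difference at least 1. Named genes were the 12 largest non-overlapping differences on each side, the 12 leading shared genes on each side, up to 6 called members of each list in its main direction, 4 in the other and 4 not called, any member of a signalling family, and markers that check the labels. Cd34 was added after its values were seen. The comparison, its lists and its families were chosen with earlier results of these data known. Genes whose probe sets name several genes were not analysed here. Motifs were searched in RefSeq promoters (GRCm38.p6) with no test. Alternatives covered the filter, the scaling, the choice of probe set, the groups on each side, the fit and each array left out.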

Additional observations from a re-analysis of the deposited data

Results flagged for a closer look

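Nr4a1, an immediate early gene that encodes a nuclear receptor, stood on opposite sides of the lymphoid arrays in the 2 myeloid groups. It was at 13.22 and 12.01 in the Monocyte arrays and 5.04 and 5.19 in the Granulocytes arrays, and the 12 lymphoid arrays lay at 7.37 to 10.46 between them. The Monocyte mean exceeded the Granulocytes mean by 7.5 on the log2 scale. This difference between the myeloid groups was not tested. Over all genes tested, 4 had the Monocyte arrays above and the Granulocytes arrays below all lymphoid arrays, and 28 had the reverse order.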

How the results depend on the processing

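Of the genes named, 65 of 87 called higher in lymphoid and 95 of 120 called higher in myeloid kept their direction and their call under every alternative run. Each array left out in turn gave 3363 to 3466 genes higher in lymphoid, 1934 to 2048 higher in myeloid, 733 to 1012 shared on the lymphoid side and 499 to 577 on the myeloid side. With Monocyte as the only myeloid group the shared counts were 1926 and 861, and with Granulocytes alone the myeloid one was 1013; these ask for fewer pairs. A minimum difference of 2 on the log2 scale left 1867 and 1131 calls. The called genes picked by the naming rule had 157 other probe sets above background. Of these, 23 gave the same direction but under 2-fold, and 4 gave the opposite direction. Centring each array on its median over the genes tested, an alternative chosen after seeing the data, gave 510 and 912 shared genes and 2353 and 2980 calls. Same-numbered arrays paired little over the genes tested: the correlation of their deviations was over 0.1 in 7 of 28 pairs of groups (-0.256 to 0.213). Eif2s3y, however, was at 12.84 and 11.76 in naive CD4 and CD8 array 1 and at 3.23 and 3.36 in their array 2. With the replicate block there were 3446 and 2001 calls and 957 and 566 shared genes.

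Some directions turned, and the cause was not tested where the alternative's construction does not show it. Against Monocyte alone the lymphoid minus myeloid difference was 0.32 for Ube2c, 1.50 for Aurkb, 1.23 for Lta4h, 0.51 for Alas2, 0.45 for Slc4a1, 0.60 for Kit, -1.32 for Egr1 and -0.34 for Tlr1. Against Granulocytes alone it was -1.25 for Rrm2, 2.39 for S1pr5, 3.27 for Nr4a1, -0.61 for Hvcn1 and 0.15 for Itgax. Without B-Cell it was -0.21 for Fcmr and -0.08 for Blk. Without the activated T cell groups it was 0.31 for Bcl11a, -1.21 for Bcl2l1 and 1.18 for Runx1. Without the 6 T cell arrays with Y-linked transcripts it was 0.52, -1.22 and 1.11 for these 3 genes, and -0.04 for Eif2s3y. Values near the low end of the arrays have no order, which limits differences between low levels.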
